A study of Mus musculus with 6 samples.

Results

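Transcripts of 8 dual-specificity MAP kinase phosphatases (Dusp1, Dusp2, Dusp4, Dusp5, Dusp6, Dusp7, Dusp10 and Dusp16) were followed in restimulated mouse CD4+ T cells, as 8 of the 19937 genes measured. They were chosen by name, as the family members known for feedback on the kinases ERK, JNK and p38, and each was read by 1 probe set that carries only its symbol. Naive CD4+ T cells from spleens of B6 mice, the strain background of every culture, had been activated with antibodies to CD3 and CD28 for 2 days and rested overnight. They were then incubated for 20 min with antibodies to CD3 and ICOS (anti-CD3 plus anti-ICOS, 2 arrays) or to CD3 alone (anti-CD3, 4 arrays), and a goat anti-hamster antibody cross-linked the bound antibodies for 8 h. All groups therefore had the earlier CD28 signal, and every anti-ICOS culture also received anti-CD3. The arrays of a group are called biological replicates, the animals behind them are not given, and a p-value here speaks of the spread from array to array.

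Binding of the T cell receptor starts cascades of kinases that end in the MAP kinases ERK, JNK and p38, which are active only while a threonine and a tyrosine in their activation loop are both phosphorylated. Dual-specificity phosphatases remove both phosphates, and many of their genes are themselves switched on by the pathway they restrain, so that their transcripts are a common readout of recent MAP kinase signalling. ICOS is a costimulatory receptor of activated T cells that is related to CD28 and is known above all for its coupling to PI3 kinase.

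Anti-CD3 replicate 4 stood apart from the other anti-CD3 arrays, and its values are given separately for each of the 8 phosphatases. Over the probe sets with 1 gene symbol it correlated with the anti-ICOS arrays at r = 0.996 and 0.996, whereas its correlation with the other anti-CD3 arrays was r = 0.986, 0.987 and 0.981 (Pearson, taken over probe sets and not over samples). T cell genes were bright on every array, with Cd3e between 5380 and 7143 and Cd4 between 3938 and 5574 on the linear intensity scale. Cd3e and Cd4 were lower on both anti-ICOS arrays than on all 4 anti-CD3 arrays, of which replicate 4 was the lowest. For Cd3d and Cd3g the groups overlapped. B cell genes were bright as well, with Cd79b between 5063 and 6652 and Ms4a1 between 2619 and 3568. The number of arrays limits the precision.

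With all 6 arrays in the fit, no phosphatase passed the test, although all 8 differences were positive. The fit (limma, Benjamini-Hochberg adjusted over all genes, threshold 0.05) called 0.271% of all genes, and 42.3% of all genes had a positive difference. Each difference is the anti-ICOS mean less the anti-CD3 mean on the log2(intensity + 16) scale. They ran from 0.098 to 0.52 among the 8 genes with a median of 0.32, against a median of -0.031 over all genes, and their adjusted p-values lay between 0.134 and 0.730. At an unadjusted p under 0.05 there were 3 of the 8, namely Dusp5, Dusp10 and Dusp16, against 11.8% of all genes. The same 3 were the only members with the 2 anti-ICOS arrays higher than each of the 4 anti-CD3 arrays, a separation seen upward in 8.51% of all genes.

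**Figure D1:**
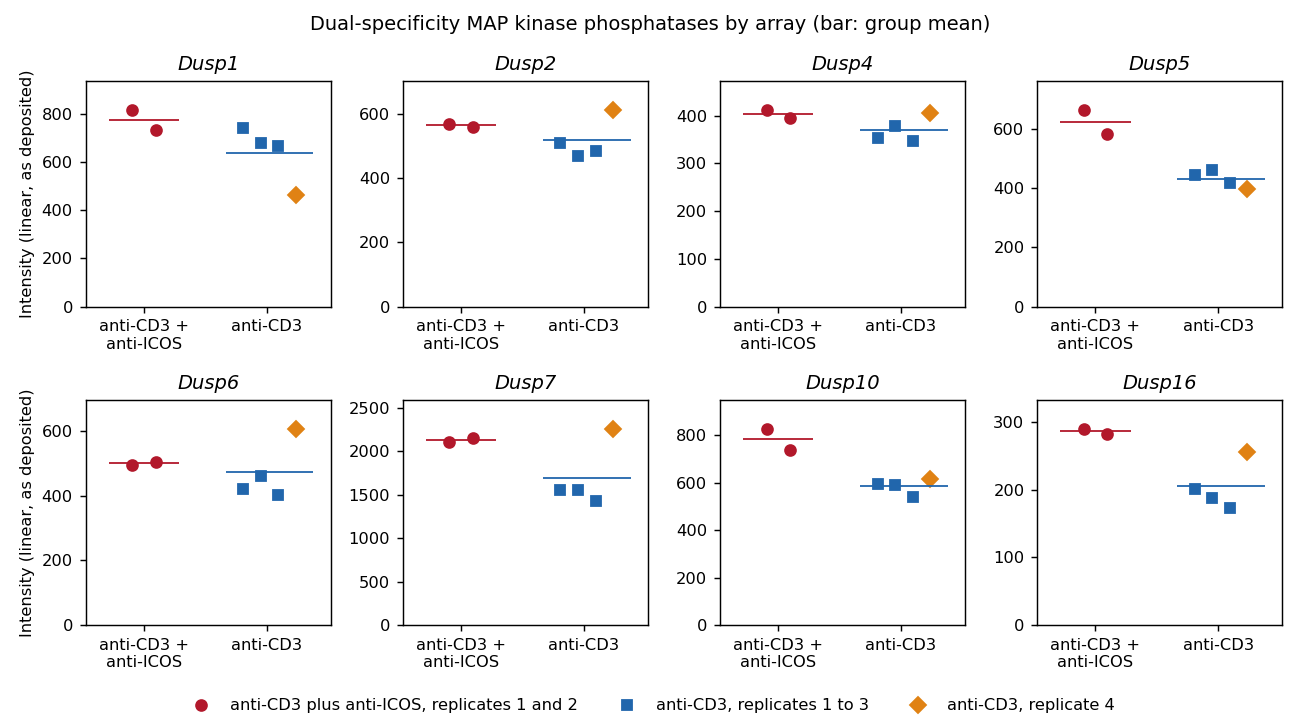
Intensity of each of the 8 phosphatases on each array, as deposited on a linear axis from 0, with anti-CD3 plus anti-ICOS on the left and anti-CD3 on the right; circles are anti-ICOS arrays, squares anti-CD3 replicates 1 to 3, diamonds anti-CD3 replicate 4, and lines the group means. For Dusp5, Dusp10 and Dusp16 both circles lie above every square and diamond, and for Dusp2, Dusp6 and Dusp7 the diamond is the highest point.

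Dusp5 is an inducible nuclear phosphatase that is selective for ERK. Its intensity was 664 and 585 with anti-ICOS, against 444, 463 and 419 in anti-CD3 replicates 1 to 3 and 397 in replicate 4. Both anti-ICOS arrays were above all anti-CD3 arrays, and replicate 4 was the lowest of the 6. The difference was 0.52 ± 0.092 (SE), a 1.43-fold level, with a 95% confidence interval of 0.30 to 0.74 and limma adjusted p = 0.134. Of all 19937 genes, 2.57% had a difference at least this large. Dusp5 had the smallest p of the 8, at rank 110 among all genes, and did not pass the test.

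Dusp10 and Dusp16 encode phosphatases that act mainly on JNK and p38. Dusp10 read 826 and 737 with anti-ICOS, against 593, 589 and 537 in anti-CD3 replicates 1 to 3 and 615 in replicate 4. Dusp16 read 290 and 283 with anti-ICOS, against 201, 188 and 173 in anti-CD3 replicates 1 to 3 and 256 in replicate 4. For both genes the anti-ICOS arrays did not overlap the anti-CD3 arrays, and replicate 4 was the anti-CD3 array nearest to them. The difference was 0.41 ± 0.086 for Dusp10 (SE, 95% confidence interval 0.21 to 0.61, limma adjusted p = 0.212). It was 0.47 ± 0.14 for Dusp16 (SE, 95% confidence interval 0.13 to 0.80, limma adjusted p = 0.414).

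The promoter windows of these 3 genes are shown because theirs were the members whose groups did not overlap. Each is the 250 bases before a RefSeq transcription start in GRCm38.p6, 5′ to 3′ on the gene's strand, and capitals mark matches to a motif searched. The Dusp5 window is chr19:53528895-53529144 on the plus strand, before the gene at 53529145 to 53541809, and that of Dusp10 is chr1:184034131-184034380 on the plus strand, before the gene at 184034381 to 184075636. That of Dusp16 is chr6:134792629-134792878 on the minus strand and belongs to a start inside the gene record (134715468 to 134807063).
Dusp5: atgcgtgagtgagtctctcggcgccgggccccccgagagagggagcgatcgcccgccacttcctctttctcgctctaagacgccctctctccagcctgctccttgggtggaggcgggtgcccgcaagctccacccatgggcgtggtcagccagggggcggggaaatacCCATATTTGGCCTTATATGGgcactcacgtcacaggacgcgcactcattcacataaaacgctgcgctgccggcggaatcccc
Dusp10: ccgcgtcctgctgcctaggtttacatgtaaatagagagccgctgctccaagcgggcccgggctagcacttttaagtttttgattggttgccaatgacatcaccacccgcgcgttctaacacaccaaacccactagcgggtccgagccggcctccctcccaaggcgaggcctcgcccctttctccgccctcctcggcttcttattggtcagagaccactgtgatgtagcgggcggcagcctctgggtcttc
Dusp16: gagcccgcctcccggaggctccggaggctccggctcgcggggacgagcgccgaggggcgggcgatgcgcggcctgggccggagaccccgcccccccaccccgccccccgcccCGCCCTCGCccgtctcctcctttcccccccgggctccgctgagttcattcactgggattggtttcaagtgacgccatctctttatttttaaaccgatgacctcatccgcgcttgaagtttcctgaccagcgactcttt
The 6 motifs were searched on both strands and were chosen with these sequences known. They were the CArG box bound by SRF, TGACGTCA (the cAMP response element), TGANTCA (AP-1), CCGGAAGT (ETS), GCGNGGGCG (EGR) and the NF-kB consensus. The Dusp5 window holds 2 CArG boxes end to end, CCATATTTGG at -82 to -73 and CCTTATATGG at -72 to -63 relative to the start, where 1.47% of 32851 mouse promoter windows of this length hold any. The Dusp16 window holds 1 match to GCGNGGGCG, which lies on the opposite strand and reads CGCCCTCGC on the strand shown, at -138 to -130, a motif present in 4.70% of windows. No match to the 6 motifs is in the Dusp10 window, nor in those of Dusp6 and Dusp7, and that of Dusp2 holds 1 match to GCGNGGGCG. Of the 8 members 7 had a window, all but Dusp4, and TGANTCA, CCGGAAGT and the NF-kB consensus, held by 6.75%, 2.88% and 7.25% of windows, matched in none of the 7. A match is a description of these letters, not a site shown to be used.

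Dusp1 encodes an immediate early nuclear phosphatase that acts on p38, JNK and ERK. It read 814 and 734 with anti-ICOS, against 743, 679 and 668 in anti-CD3 replicates 1 to 3 and 461 in replicate 4. The groups overlapped, since anti-CD3 replicate 1 was above anti-ICOS replicate 2, and replicate 4 was far below the other 5 arrays. The difference of 0.29 ± 0.18 (SE, 95% confidence interval -0.13 to 0.72, limma adjusted p = 0.446) therefore held both a small step from replicates 1 to 3 and a large one from replicate 4. Its promoter window, chr17:26508473-26508722 on the minus strand, before the gene at 26505591 to 26508472, is shown because Dusp1 was the member whose replicate 4 value lay farthest below the rest. The capitals are its 1 full cAMP response element, TGACGTCA at -143 to -136, which 1.55% of windows hold.
Dusp1: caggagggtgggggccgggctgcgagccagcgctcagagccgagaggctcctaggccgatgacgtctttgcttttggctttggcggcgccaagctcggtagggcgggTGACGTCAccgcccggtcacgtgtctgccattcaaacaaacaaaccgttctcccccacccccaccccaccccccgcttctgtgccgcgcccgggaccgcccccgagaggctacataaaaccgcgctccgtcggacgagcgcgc

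Dusp2 and Dusp4 encode the other inducible nuclear phosphatases, and Dusp2 was first found in activated T cells. Dusp2, on chromosome 2, read 569 and 559 with anti-ICOS, against 508, 468 and 484 in anti-CD3 replicates 1 to 3 and 610.4 in replicate 4. Dusp4, on chromosome 8, read 411 and 395 with anti-ICOS, against 353, 379 and 347 in anti-CD3 replicates 1 to 3 and 405 in replicate 4. For both genes the anti-ICOS arrays lay above replicates 1 to 3, while replicate 4 was the highest of all 6 arrays for Dusp2 and between the 2 anti-ICOS arrays for Dusp4. The differences were 0.13 ± 0.11 for Dusp2 and 0.12 ± 0.084 for Dusp4 (SE, limma adjusted p = 0.541 and 0.480), with 95% confidence intervals of -0.14 to 0.39 and -0.081 to 0.32.

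Dusp6 and Dusp7 encode cytoplasmic phosphatases that are selective for ERK, and Dusp6 is a widely used transcript readout of ERK activity. Dusp6, on chromosome 10, read 495 and 505 with anti-ICOS, against 419, 462 and 402 in anti-CD3 replicates 1 to 3 and 606 in replicate 4. Dusp7, on chromosome 9, read 2108 and 2155 with anti-ICOS, against 1549, 1556 and 1423 in anti-CD3 replicates 1 to 3 and 2255 in replicate 4. Replicate 4 was the highest of the 6 arrays for both genes, and the anti-ICOS arrays lay between it and replicates 1 to 3. The difference was 0.098 ± 0.16 for Dusp6 (SE, 95% confidence interval -0.28 to 0.47, limma adjusted p = 0.730), and it was -0.018 after quantile normalization. For Dusp7 it was 0.35 ± 0.18 (SE, 95% confidence interval -0.067 to 0.77, limma adjusted p = 0.423).

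Against anti-CD3 replicates 1 to 3 alone, 5 of the 8 phosphatases rose, and none fell. For 7 of the 8, all but Dusp1, both anti-ICOS arrays were above these 3 arrays, as they were in 28.5% of all genes. In that fit 17.1% of all genes were called higher and 12.7% lower, and the members' median difference was 0.33 against -0.041 over all genes. Dusp16 rose by 0.57 ± 0.076, Dusp7 by 0.49 ± 0.069 and Dusp5 by 0.48 ± 0.080 on the log2 scale (SE, limma adjusted p = 0.00174, 0.00209 and 0.00434). Dusp10 rose by 0.44 ± 0.079 and Dusp2 by 0.21 ± 0.065 (SE, limma adjusted p = 0.00629 and 0.0474). These steps are 1.49-fold for Dusp16, 1.41-fold for Dusp7, 1.40-fold for Dusp5, 1.35-fold for Dusp10 and 1.16-fold for Dusp2. Dusp6 differed by 0.22 ± 0.075, Dusp4 by 0.16 ± 0.068 and Dusp1 by 0.15 ± 0.078 (SE, limma adjusted p = 0.0603, 0.109 and 0.176). Without anti-ICOS replicate 1 as well, the differences were 0.55 for Dusp16, 0.51 for Dusp7, 0.39 for Dusp5, 0.36 for Dusp10 and 0.20 for Dusp2. That fit has 1 anti-ICOS array, assumed to vary like the anti-CD3 arrays, which alone give its spread. The call of Dusp2 ended when any 1 of anti-CD3 replicates 1 and 2 or the 2 anti-ICOS arrays was left out as well, with median centring, an offset of 1 or a trended prior, and after quantile normalization, where its difference was 0.072 (limma adjusted p up to 0.491). In fits of all 6 arrays, 7 of the 8 were called higher with array quality weights, where 22.8% of all genes were called higher and 24.4% lower. With the replicate number as a block 5 of the 8 were called higher, where this held for 17% of all genes and 15.9% were called lower. The block leaves fewer residual degrees of freedom than the other fits, so these calls lean more on limma's prior.

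With anti-CD3 replicate 4 alone taken as the control and replicates 1 to 3 kept just for the spread, no phosphatase passed the test and 4 of the 8 differences were negative. That fit called 0.176% of all genes, all of them higher, and 44.5% of all genes had a positive difference. The 4 positive differences were 0.73 ± 0.10 for Dusp1, 0.63 ± 0.11 for Dusp5, 0.34 ± 0.11 for Dusp10 and 0.15 ± 0.10 for Dusp16 (SE, limma adjusted p = 0.0759, 0.118, 0.671 and 1.000). Dusp6 differed by -0.27, Dusp2 by -0.11, Dusp7 by -0.081 and Dusp4 by -0.0054. The members' median was 0.072 against -0.013 over all genes. A single array is the reference here, and its own spread is not measured.

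**Figure D2:**
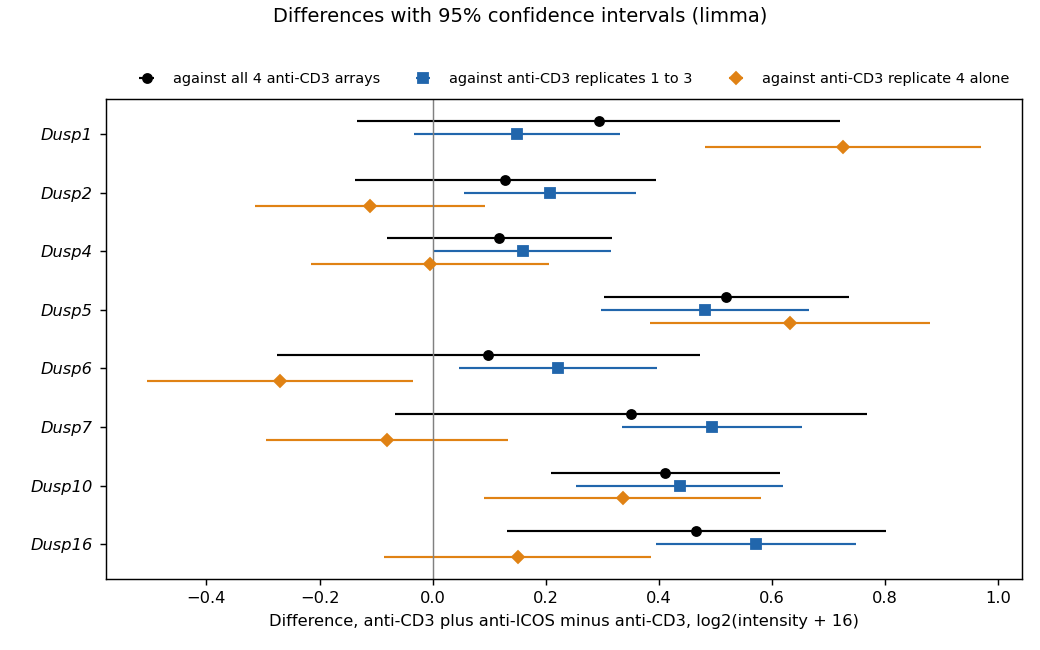
Difference between anti-CD3 plus anti-ICOS and anti-CD3 for each phosphatase on the log2(intensity + 16) scale with 95% confidence intervals from limma, taken against all 4 anti-CD3 arrays (circles), against replicates 1 to 3 (squares) and against replicate 4 alone (diamonds). Dusp5 and Dusp10 have all 3 intervals above 0, and Dusp6 lies at 0.22 against replicates 1 to 3 and at -0.27 against replicate 4.

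Replicate 4 did not move all 8 phosphatases one way. It was above replicates 1 to 3 for 6 of them and below for Dusp1 and Dusp5, where over all genes it was above in 34.5% and below in 42.5%. Less the mean of replicates 1 to 3, replicate 4 stood at 0.58 for Dusp7, 0.49 for Dusp6, 0.42 for Dusp16 and 0.32 for Dusp2 on the log2 scale. It stood at 0.16 for Dusp4, 0.10 for Dusp10, -0.15 for Dusp5 and -0.58 for Dusp1. The anti-ICOS arrays, less the same 3 arrays, stood at 0.49 for Dusp7, 0.22 for Dusp6, 0.57 for Dusp16, 0.21 for Dusp2, 0.16 for Dusp4, 0.44 for Dusp10, 0.48 for Dusp5 and 0.15 for Dusp1. Dusp5, Dusp10 and Dusp16 thus stood higher with anti-ICOS than in either set of anti-CD3 arrays, Dusp16 by 0.15 over replicate 4. Dusp7 and Dusp4 stood near the level of replicate 4, and Dusp1 stood near that of replicates 1 to 3.

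**Figure D3:**
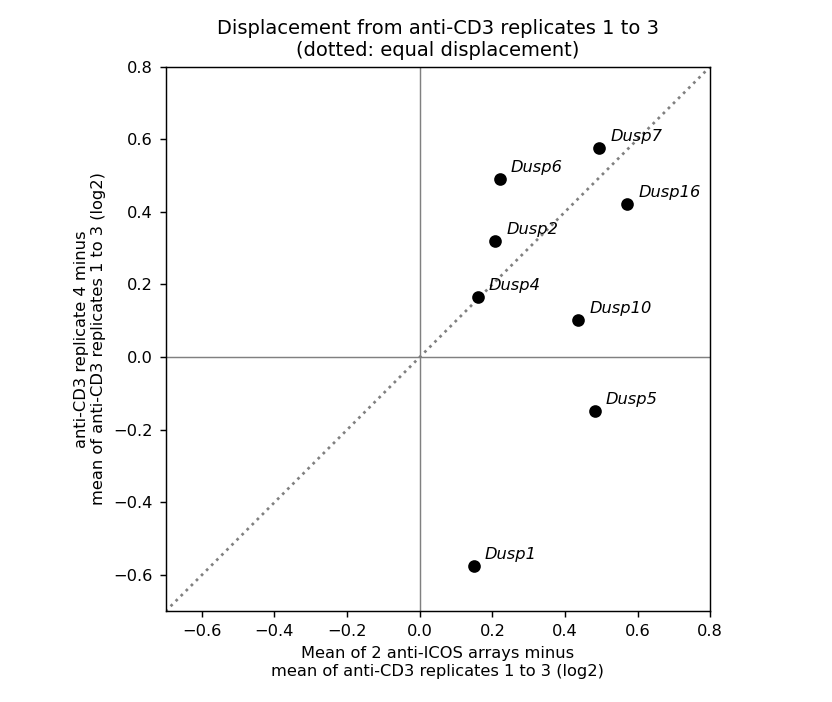
Each point is 1 phosphatase, with the mean of the 2 anti-ICOS arrays on the horizontal axis and anti-CD3 replicate 4 on the vertical axis, both after subtraction of the average of anti-CD3 replicates 1 to 3 on the log2 scale, so that both axes share those 3 arrays. Dusp4 and Dusp7 lie close to the dotted line of equal displacement, Dusp5 lies below 0 on the vertical axis at -0.15, and Dusp1 lies lowest at -0.58.

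Marker genes of other cell types also differed between these arrays, and their part in the phosphatase values was not tested. In these bulk samples, fewer cells of a type and less RNA per cell cannot be told apart. Against replicates 1 to 3, the fit in which 5 phosphatases rose, 8 of 10 NK cell markers rose, as did 7 of 14 dendritic cell, 5 of 9 monocyte and macrophage, 4 of 10 mast cell and basophil, 4 of 9 B cell and 3 of 10 neutrophil markers, beside 17.1% of all genes. In the same fit 1 dendritic cell, 1 B cell and 4 of 9 T cell identity markers fell, beside 12.7% of all genes. With all 6 arrays only the dendritic cell markers Flt3 and Fscn1 rose. The NK cell markers summed to 4333 to 4362 with anti-ICOS and 3076 to 3359 in anti-CD3 replicates 1 to 3. Replicate 4, at 4328, lay close to the anti-ICOS arrays by this sum, of which Klrd1 made up most. By the mean of the log2 values, which weighs each marker alike, replicate 4 stood at 7.43. That lay between replicates 1 to 3 (7.06 to 7.14) and the anti-ICOS arrays (7.59 to 7.66). Single markers differed: Klrk1 was highest in replicate 4, at 410. Ncr1 read 33.7 there, against 64.7 and 77.2 with anti-ICOS and 32.5 to 41.9 in replicates 1 to 3. The monocyte and macrophage markers summed to 1384 to 2064 with anti-ICOS, against 873 to 909 in replicates 1 to 3 and 1385 in replicate 4, at the low end of the anti-ICOS range. In replicate 4 Adgre1 read 258 and Lyz2 355, against 56.7 to 61.0 and 87.8 to 92.8 in replicates 1 to 3. Fcgr3 and Itgam were also above those 3 arrays there, Csf1r, Fcgr1 and Ms4a7 were below them, and Cd14 and Cd68 lay within their range. The dendritic cell markers summed to 23339 to 24993 with anti-ICOS and 20978 to 23358 in replicates 1 to 3. Replicate 4 had the lowest sum, at 19125, most of which came from H2-Ab1, Cd74 and Ccr7. By the mean of the log2 values replicate 4 was not the lowest. It stood at 8.44, against 8.32 to 8.34 in replicates 1 to 3 and 8.94 to 8.95 with anti-ICOS. Replicate 4 also had the lowest sum of the neutrophil markers, at 684 to 1504 with anti-ICOS, against 561 to 645 in replicates 1 to 3 and 517 in replicate 4. The 2 anti-ICOS arrays differed here, since Mpo, Elane and Ngp read 538, 371 and 210 in replicate 2 and 138, 128 and 57.1 in replicate 1. For S100a9, Ly6g and Ltf the groups overlapped, and Camp was lower on both anti-ICOS arrays. Replicate 4 was also lowest by the sum of the mast cell and basophil markers, at 861 to 1011 with anti-ICOS, against 621 to 701 in replicates 1 to 3 and 587 in replicate 4. The B cell markers summed to 21309 to 23508 with anti-ICOS, against 19798 to 22110 in replicates 1 to 3 and 23509 in replicate 4. The T cell identity markers summed to 30600 to 31673 with anti-ICOS, against 33775 to 36173 in replicates 1 to 3 and 32452 in replicate 4. No marker was listed at 0, and Clec9a and Xcr1, which define one dendritic cell lineage, stayed between 28.4 and 45.2 on all arrays.

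The other 2 phosphatases of the same family had negative differences with all 6 arrays, which turned to 0.011 for Dusp8 and 0.080 for Dusp9 against replicate 4 alone. Dusp8, which acts mainly on JNK and p38, read 121 and 121 with anti-ICOS, against 155, 144 and 169 in anti-CD3 replicates 1 to 3 and 120.0 in replicate 4. Its difference was -0.24 ± 0.12 (SE, limma adjusted p = 0.423), and it fell by 0.32 against replicates 1 to 3 (limma adjusted p = 0.0182). Dusp9, an ERK-selective member, read 109 and 112 with anti-ICOS, against 133, 160.5 and 124 in anti-CD3 replicates 1 to 3 and 104 in replicate 4. For both genes the groups overlapped, with replicate 4 the lowest of the 6 arrays. For Dusp9 the difference was -0.19 ± 0.14 (SE, limma adjusted p = 0.493) and did not pass the test against replicates 1 to 3 either (limma adjusted p = 0.0686). Among 19 atypical dual-specificity phosphatases, slingshot phosphatases included, which lack the family's kinase-binding domain, 0 passed with all 6 arrays and the median difference was 0.073, which turned to -0.076 against replicate 4 alone. Against replicates 1 to 3 there were 7 higher and 0 lower, where 17.1% of all genes were higher and 12.7% lower. The genes of smallest p were Ssh1, a cofilin phosphatase, at 0.41, Dusp13 at -0.26, Dusp12 at 0.31 and Dusp21 at -0.12, with anti-CD3 replicate 4 far above the other anti-CD3 arrays for Dusp12. Against replicate 4 alone, in the same order, they differed by 0.067, -0.11, -0.10 and -0.081.

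Genes upstream of the MAP kinases were not called with all 6 arrays. Of 12 measured genes of the entry into the Ras and ERK pathway 0 passed, with a median difference of 0.14, which turned to -0.070 against replicate 4 alone. Against replicates 1 to 3 there were 5 higher and 1 lower, beside 17.1% and 12.7% of all genes. Sos1, an exchange factor that loads Ras with GTP, read 535 and 529 with anti-ICOS, against 329, 299 and 281 in anti-CD3 replicates 1 to 3 and 475 in replicate 4. Its difference was 0.63 ± 0.19 (SE, limma adjusted p = 0.414), and replicate 4 lay much nearer to the anti-ICOS arrays than to its own group. Nf1 and Rasa2, which return Ras to its inactive form, differed by 0.47 and 0.28, and Rasa3, of the same class, by -0.21. Against replicate 4 alone these 3 differences were 0.081, 0.017 and -0.083. Of 19 measured MAP kinases and kinases above them 0 passed, with a median of 0.10, or 0.027 against replicate 4 alone. Against replicates 1 to 3 there were 5 higher and 2 lower of the 19, beside 17.1% and 12.7% of all genes. Map3k8, which activates the ERK cascade, read 541 and 451 with anti-ICOS, against 325, 322 and 299 in anti-CD3 replicates 1 to 3 and 449 in replicate 4. Its difference was 0.50 ± 0.16 (SE, limma adjusted p = 0.414). Map3k14, the kinase of the noncanonical NF-kB pathway, differed by 0.42, the p38 kinase kinase gene Map2k3 by 0.30 and the atypical kinase gene Mapk6 by 0.15, or 0.14, 0.15 and 0.084 against replicate 4 alone. The 2 that fell against replicates 1 to 3 were Map2k1, a kinase of ERK, by 0.63 and Mapk13, a p38 kinase, by 0.31, both named after their values were seen.

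Other inhibitors of ERK signalling leaned lower by their median and by the separation of the groups, while the calls against replicates 1 to 3 went both ways. Of 17 genes 0 passed with all 6 arrays, 6 had a positive difference, and the median was -0.11, or -0.044 against replicate 4 alone. Both anti-ICOS arrays were below all 4 anti-CD3 arrays in 7 of them and above in 1, where over all genes this was 14.7% and 8.51%. Spred1, a membrane inhibitor of Ras signalling, was the 1 above, at 171 and 173 with anti-ICOS, against 121, 128 and 91.4 in anti-CD3 replicates 1 to 3 and 148 in replicate 4. Its difference was 0.47 ± 0.16 (SE, limma adjusted p = 0.414). The related genes Spry4 and Spred2 differed by -0.19 and -0.15, and Ptprr, a tyrosine phosphatase of ERK, by -0.25, or -0.10, -0.16 and -0.030 against replicate 4 alone. Against replicates 1 to 3, 4 of the 17 rose and 2 fell, beside 17.1% and 12.7% of all genes, with Spred1 among the first and Ptprr among the second.

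Genes that respond early to ERK lay higher without passing the test over all genes. Of 24 genes 0 passed with all 6 arrays, 20 had a positive difference, and the median was 0.19, or 0.074 against replicate 4 alone. Both anti-ICOS arrays were above all 4 anti-CD3 arrays in 10 of 24, against 8.51% of all genes. Jun, a subunit of AP-1, read 606 and 471 with anti-ICOS, against 295, 295 and 241 in anti-CD3 replicates 1 to 3 and 330.3 in replicate 4. Its difference was 0.85 ± 0.14 (SE, limma adjusted p = 0.109), and that of the immediate early gene Ier5 was 0.61 ± 0.13 (SE, limma adjusted p = 0.223). Ier3 differed by 0.58 and Zfp36, which encodes an mRNA-destabilising protein, by 0.41, with anti-CD3 replicate 3 below the other anti-CD3 arrays for Zfp36. Against replicates 1 to 3 there were 10 higher genes and 1 lower, beside 17.1% and 12.7% of all genes, the lower one being the ETS factor gene Etv5 at -0.51 (limma adjusted p = 0.00950), which was named after its value was seen. Against replicate 4 alone Jun differed by 0.67, Ier3 by 0.62, Zfp36 by 0.36 and Ier5 by 0.34, and none of the 4 passed.

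**Figure D4:**
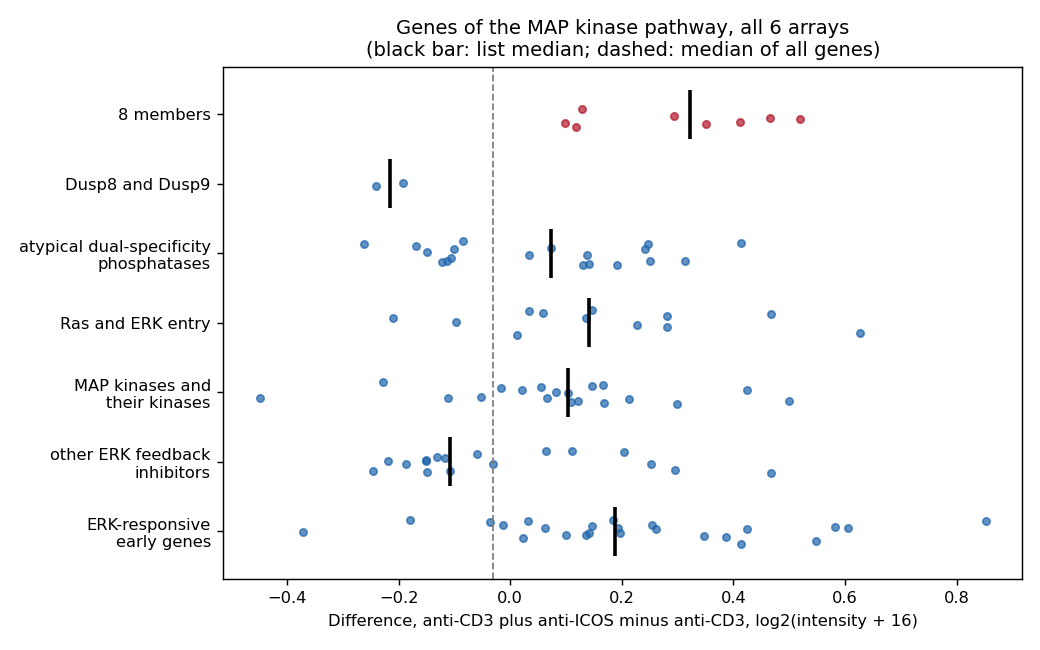
Difference between anti-CD3 plus anti-ICOS and anti-CD3 with all 6 arrays on the log2(intensity + 16) scale, 1 point per gene, for the 8 phosphatases and 6 lists of the MAP kinase pathway; black bars are list medians and the dashed line is the median of all genes at -0.031. All 8 phosphatases lie right of 0, Dusp8 and Dusp9 lie left of it, and the medians run from -0.22 for those 2 genes to 0.32 for the 8.

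The genes whose values over the 6 arrays were most like those of Dusp5 were Nqo1, Mir27a and Mvp, at Pearson r = 0.992, 0.991 and 0.987 (n = 6 arrays, 2 groups). Of all genes, 46 (0.231%) reached r of 0.95. Nqo1, a quinone reductase gene, read 93.6 and 64.9 with anti-ICOS, against 34.2, 39.5 and 34.8 in anti-CD3 replicates 1 to 3 and 26.7 in replicate 4. As for Dusp5, replicate 4 was the lowest array and anti-ICOS replicate 1 the highest. Mvp, which encodes the major vault protein, read 396 and 375 with anti-ICOS, against 272, 299.8 and 253 in anti-CD3 replicates 1 to 3 and 245 in replicate 4.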

How the data were processed

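Biotin-labelled RNA of 6 cultures, from 1 ug of total RNA each, was read on Affymetrix Mouse Gene 1.0 ST arrays, per the labels' protocols. The deposited values are linear intensities, 1 per probe set, from 7.23 to 22176, and their median lay between 109 and 114 on each array. The one tool listed is MAS5, per the submitters' processing notes. Nothing used here states its version, the normalization, background correction or centring, and a shift of most genes one way might not be seen.

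Of 34760 probe sets, 21640 had 1 gene symbol in the platform annotation, 1321 several and 11799 none. The brightest probe set stood for each of 19937 genes, without a filter on dim genes. Values were analysed as log2(intensity + 16), so that fold changes of dim genes are understated. The test was limma's moderated one (version 3.58.1, R 4.3.3, functions lmFit and eBayes), two-sided, with p adjusted by Benjamini-Hochberg across all genes. It had 4 residual degrees of freedom, or 3 without anti-CD3 replicate 4, and fewer with a replicate block. The members and lists were chosen with earlier results of these data known. From each pathway list the 4 genes of smallest p were named, and for the phosphatase of smallest p the 3 genes most correlated with it. Alternatives tried were a threshold of 0.1, offsets of 1 and 64, centring on medians, leaving out the dimmest 40% of genes, quantile normalization, quality weights for arrays, another prior, a replicate block, other uses of several probe sets, replicate 4 as sole control and single arrays left out. Listed genes with no probe set of their own symbol were not analysed here. On simulated data with 200 of 19937 genes changed, the fit of 6 arrays recovered 84% of 2-fold changes with 7 false calls, and that without replicate 4 recovered 89.5% with 5. The simulated noise was independent from gene to gene, so it held no shift of 1 array across many genes like that of replicate 4. Changes under 2-fold, like those of the phosphatases, were not simulated, so these rates do not describe how well such differences are found here. Promoter windows and gene positions are from RefSeq (GRCm38.p6), and proteins were not analysed here. Figures used matplotlib 3.10.9 (Python 3.11.15).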

Additional observations from a re-analysis of the deposited data

Results flagged for a closer look

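In 4 of 47 values examined (33 genes and 14 lists) 1 array lay farther from the other anti-CD3 arrays than Dixon's 95% limit for 4 samples allows (its gap over the range of the 4). Chance gives about 1 in 20, and over all genes the share was 8.69%. Anti-CD3 replicate 4 was the distant array for Dusp12, at 7.21 on the log2 scale, for the summed intensity of the atypical dual-specificity phosphatases, at 8744, and for that of the monocyte and macrophage markers, at 1385. Anti-CD3 replicate 3 was the distant array for Zfp36, at 8.89 on the log2 scale. None of the 8 phosphatases was among them, although replicate 4 came close for Dusp7 at a ratio of 0.806 and for Dusp1 at 0.774.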

How the results depend on the processing

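The count of called phosphatases turned on anti-CD3 replicate 4 and on how the arrays were weighted. With all 6 arrays weighted alike 0 of 8 were called. It was 7 with array quality weights, which set replicate 4 at 0.15 and replicate 1 at 4.53, and 5 with a replicate block, a fit in which anti-CD3 replicates 3 and 4 have no partner and add nothing to the difference. Leaving out single arrays gave 0 to 5, a lone anti-ICOS array being assumed to vary like the anti-CD3 arrays. The labels do not say that a replicate number marks a shared batch, and deviations of same-numbered arrays correlated at -0.039 and 0.101. With 2 anti-ICOS arrays these deviations are mirror images of each other, so the correlations cannot show whether the numbers are paired. No phosphatase was called lower under any alternative. Without anti-CD3 replicate 4, where 5 were called, leaving out a further array gave 2 to 5. Over all genes 54 were called, against 9413 with array quality weights, 6551 with the replicate block, 85 at a threshold of 0.1, 28 with an offset of 64, 35 with replicate 4 as the only reference and 16 to 5930 with 1 array left out. With replicate 4 as the only reference the differences of Dusp2 (-0.11), Dusp4 (-0.0054), Dusp6 (-0.27) and Dusp7 (-0.081) reversed, and that of Dusp6 also reversed with quantile normalization (-0.018); the cause was not tested. Dusp1, Dusp5, Dusp10 and Dusp16 kept a positive difference under all 18 alternatives, from 0.10 to 0.73, 0.42 to 0.63, 0.32 to 0.49 and 0.15 to 0.57. Some of the 18 could not move these differences. They were the threshold of 0.1, the other prior, the filter on dim genes and the other uses of several probe sets.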
